A study of Mus musculus with 18 samples.

Results

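A stretch of mouse chromosome 19 carries Jak2, Insl6 and the genes of both ligands of the inhibitory receptor PD-1, Cd274 (PD-L1) and Pdcd1lg2 (PD-L2). The 9 genes described here are, in chromosomal order, Rcl1, Jak2, Insl6, Cd274, Pdcd1lg2, Ermp1, Mlana, Ranbp6 and Uhrf2. They were chosen for lying around Jak2 and Cd274 and are 9 of the 19938 genes that the array annotation gives a probeset of their own. All 9 were found, each with 1 probeset (a group of probes summarised as 1 value), so no member was dropped. The locus was chosen by the maturation changes of these same arrays, in which Insl6, Cd274 and Pdcd1lg2 stood out. Changes between maturation stages are therefore given as a description and support nothing, and tests are read only for differences between mouse backgrounds.

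The cells were XCR1+ dendritic cells (DCs), the type specialised in cross-presenting antigen to CD8 T cells, sorted from the thymus of untreated mice as CD11b-, CD11c+, MHCII+, CD172a-, XCR1+ and CD8a+. Each of 6 groups has 3 arrays. Immature cells were CCR7- and CD117+, and homeostatically matured cells were CCR7+ and CD117-. Each stage was taken from 3 backgrounds: wild-type B6 mice under specific-pathogen-free housing (CTRL), Ifnar1-KO mice under the same housing, which lack a chain of the type I interferon receptor, and germ-free wild-type B6 mice (GF). All values are log2 intensities, so a difference of 1 is a doubling, and the levels of different genes cannot be set against each other. Separate mice per array are not stated, so p-values reflect the spread between arrays, which may be technical.

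PD-L1 and PD-L2 are surface proteins that bind PD-1 on T cells and dampen signalling through the T cell receptor. PD-L1 is made by many cell types and is inducible by interferons, whereas PD-L2 is mostly restricted to antigen-presenting cells. JAK2 is a tyrosine kinase bound to cytokine receptors, including those for interferon-gamma, GM-CSF and IL-12, and it phosphorylates STAT transcription factors that act on targets such as Cd274.

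To show what lies upstream of members with large and with small changes, 4 promoters are printed: those of Cd274 and Pdcd1lg2, and those of Jak2 and Rcl1, whose changes were smaller. Each runs from 250 bases before to 50 bases after the start. The sequences are RefSeq's on the mouse build GRCm38.p6, 5′ to 3′ on the gene's own strand, here always the plus strand. Capitals mark a match to the NF-kB consensus. The regions are chr19:29101125-29101424 for Rcl1, chr19:29251553-29251852 for Jak2, chr19:29367188-29367487 for Cd274 and chr19:29410669-29410968 for Pdcd1lg2.
Rcl1: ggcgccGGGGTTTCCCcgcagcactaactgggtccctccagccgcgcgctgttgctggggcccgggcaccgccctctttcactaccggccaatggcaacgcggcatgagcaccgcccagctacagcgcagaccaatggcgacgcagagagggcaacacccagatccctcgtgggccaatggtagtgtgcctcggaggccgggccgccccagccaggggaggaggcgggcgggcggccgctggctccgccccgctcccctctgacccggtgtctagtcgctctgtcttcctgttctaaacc
Jak2: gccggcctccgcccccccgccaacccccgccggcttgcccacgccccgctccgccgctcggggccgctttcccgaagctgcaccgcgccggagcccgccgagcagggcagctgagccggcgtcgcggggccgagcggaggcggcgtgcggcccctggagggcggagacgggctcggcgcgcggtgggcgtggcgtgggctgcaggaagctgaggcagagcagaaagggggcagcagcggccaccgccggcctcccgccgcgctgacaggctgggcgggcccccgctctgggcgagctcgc
Cd274: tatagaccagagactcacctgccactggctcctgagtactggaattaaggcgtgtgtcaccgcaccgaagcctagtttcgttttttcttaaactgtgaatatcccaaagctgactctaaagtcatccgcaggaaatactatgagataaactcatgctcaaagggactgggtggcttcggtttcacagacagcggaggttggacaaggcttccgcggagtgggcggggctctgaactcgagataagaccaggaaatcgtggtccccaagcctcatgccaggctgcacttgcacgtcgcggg
Pdcd1lg2: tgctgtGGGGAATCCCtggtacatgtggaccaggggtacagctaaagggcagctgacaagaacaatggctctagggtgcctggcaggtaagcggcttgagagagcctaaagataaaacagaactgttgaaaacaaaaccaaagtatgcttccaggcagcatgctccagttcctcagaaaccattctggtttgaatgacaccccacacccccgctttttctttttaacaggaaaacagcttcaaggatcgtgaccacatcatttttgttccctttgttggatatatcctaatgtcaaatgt
A promoter was matched by symbol for 7 of the 9 members, all but Insl6 and Mlana. The NF-kB consensus matched the Rcl1 and the Pdcd1lg2 promoter, in both at 244 bases before the start, and none of the other 5. On both strands, 4.505% of the 32851 mouse promoters of this length hold such a match. It stands here in Pdcd1lg2, whose level was far higher in CCR7+ cells, and in Rcl1, whose change was 0.07 in CTRL and 0.40 in Ifnar1-KO. A STAT-binding pattern, TTCNNNGAA, is held by 8.298% of all promoters and an interferon-response pattern, GAAANNGAAA, by 3.443%. Neither pattern was found in a member's window, which says only that these letters are not there. The windows differ in composition: the Jak2 window holds 44 CpG dinucleotides and the Pdcd1lg2 window 3, with 15 for Cd274, against a median of 7 over all promoters.

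Before the results, some arrays need naming. On the second principal component of the 2000 most variable genes (4.198% of their variance, against 86.93% for the first, which separates the stages), 6 arrays stand apart: replicate 2 of Ifnar1-KO and replicates 2 and 3 of GF, at both stages. They range from -20.9 to -6.86 there, and the other 12 from 3.57 to 10.9. Correlations within a group were 0.974 to 0.996, and no pair of arrays was identical. The Ifnar1 probeset gave 8.07, 7.27 and 7.66 on the CCR7- arrays labelled Ifnar1-KO, where CTRL had 8.06 to 8.09. The CCR7+ arrays labelled so gave 7.61, 6.07 and 6.96, where CTRL had 7.61 to 7.82. Both replicate 1 arrays labelled Ifnar1-KO thus read as CTRL does. The altered stretch of the gene, and its place relative to the probes, is not stated, so this probeset does not settle the genotype. The sort genes followed the labels: Kit was 8.54 to 9.30 on CCR7- and 5.31 to 7.04 on CCR7+ arrays, and Ccr7 was 7.25 to 9.09 and 11.8 to 12.1. Among 10 XCR1+ DC markers the mean level was 9.94 to 10.2 on CCR7- and 7.35 to 8.64 on CCR7+ arrays, and Xcr1 itself was 11.3 to 11.6 and 4.89 to 8.36.

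Insl6 had the widest gap between the stages of all 9 genes. It encodes a relaxin-family peptide known mainly from the testis. On CCR7- arrays (replicates 1 to 3) its level was 4.33, 4.28 and 5.12 in CTRL, 3.72, 4.91 and 3.94 in Ifnar1-KO, and 4.21, 3.59 and 4.09 in GF. On CCR7+ arrays it was 10.71, 10.70 and 10.19 in CTRL, 9.93, 10.34 and 10.25 in Ifnar1-KO, and 10.31, 10.21 and 10.67 in GF. Every CCR7+ array lay far above every CCR7- array, whatever the background. The change was 5.96 ± 0.30 (SE, n = 3 arrays per group) in CTRL, a 62.1-fold higher level, 5.99 in Ifnar1-KO and 6.44 in GF. By size of change among all 19938 genes it ranked 2, 3 and 1 in the 3 backgrounds. The CCR7- values lie near or under the median of the 19938 genes on an array, which was 4.62 to 4.75. With no detection call among the values, the low levels of Insl6 and Pdcd1lg2 may be background, and their changes are then understated.

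Cd274, which encodes PD-L1, was higher on every matured array than on any immature one. Its CCR7- arrays read 6.40, 6.42 and 6.93 in CTRL, 5.56, 4.93 and 5.61 in Ifnar1-KO, and 6.61, 4.87 and 5.24 in GF. Its CCR7+ arrays read 10.02, 10.58 and 10.31 in CTRL, 10.38, 9.62 and 10.23 in Ifnar1-KO, and 10.37, 10.17 and 9.80 in GF. The CCR7+ arrays of the 3 backgrounds overlap, while among CCR7- arrays the 3 of Ifnar1-KO and 2 of GF lie below all of CTRL. The change with maturation was 3.72 ± 0.36 in CTRL, 4.71 in Ifnar1-KO and 4.54 in GF, which is 13.2-, 26.2- and 23.2-fold. It ranked 43, 21 and 24 of all genes.

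Pdcd1lg2, which encodes PD-L2, read 4.33, 5.37 and 5.19 on the CCR7- arrays of CTRL, 4.33, 3.94 and 4.25 on those of Ifnar1-KO, and 5.09, 3.90 and 4.12 on those of GF. On CCR7+ arrays it read 9.25, 9.27 and 8.91 in CTRL, 9.25, 9.37 and 9.09 in Ifnar1-KO, and 9.74, 9.47 and 9.43 in GF. The 3 GF arrays are the highest of the CCR7+ arrays. The change was 4.18 ± 0.28 in CTRL, 5.07 in Ifnar1-KO and 5.18 in GF, or 18.1-, 33.5- and 36.2-fold, with ranks of 27, 15 and 13.

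Jak2 lay well above the array median at both stages and changed far less. Its CCR7- arrays read 9.69, 9.95 and 9.94 in CTRL, 9.79, 9.11 and 9.76 in Ifnar1-KO, and 9.95, 8.98 and 9.07 in GF. Its CCR7+ arrays read 10.38, 10.65 and 10.41 in CTRL, 10.83, 9.89 and 10.50 in Ifnar1-KO, and 10.46, 10.04 and 10.16 in GF. Within each background every CCR7+ array was above every CCR7- array, but the Ifnar1-KO replicate 2 array of CCR7+ cells lies within the range of CCR7- arrays of CTRL. The change was 0.62 ± 0.27 in CTRL, 0.85 in Ifnar1-KO and 0.89 in GF.

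**Figure D1:**
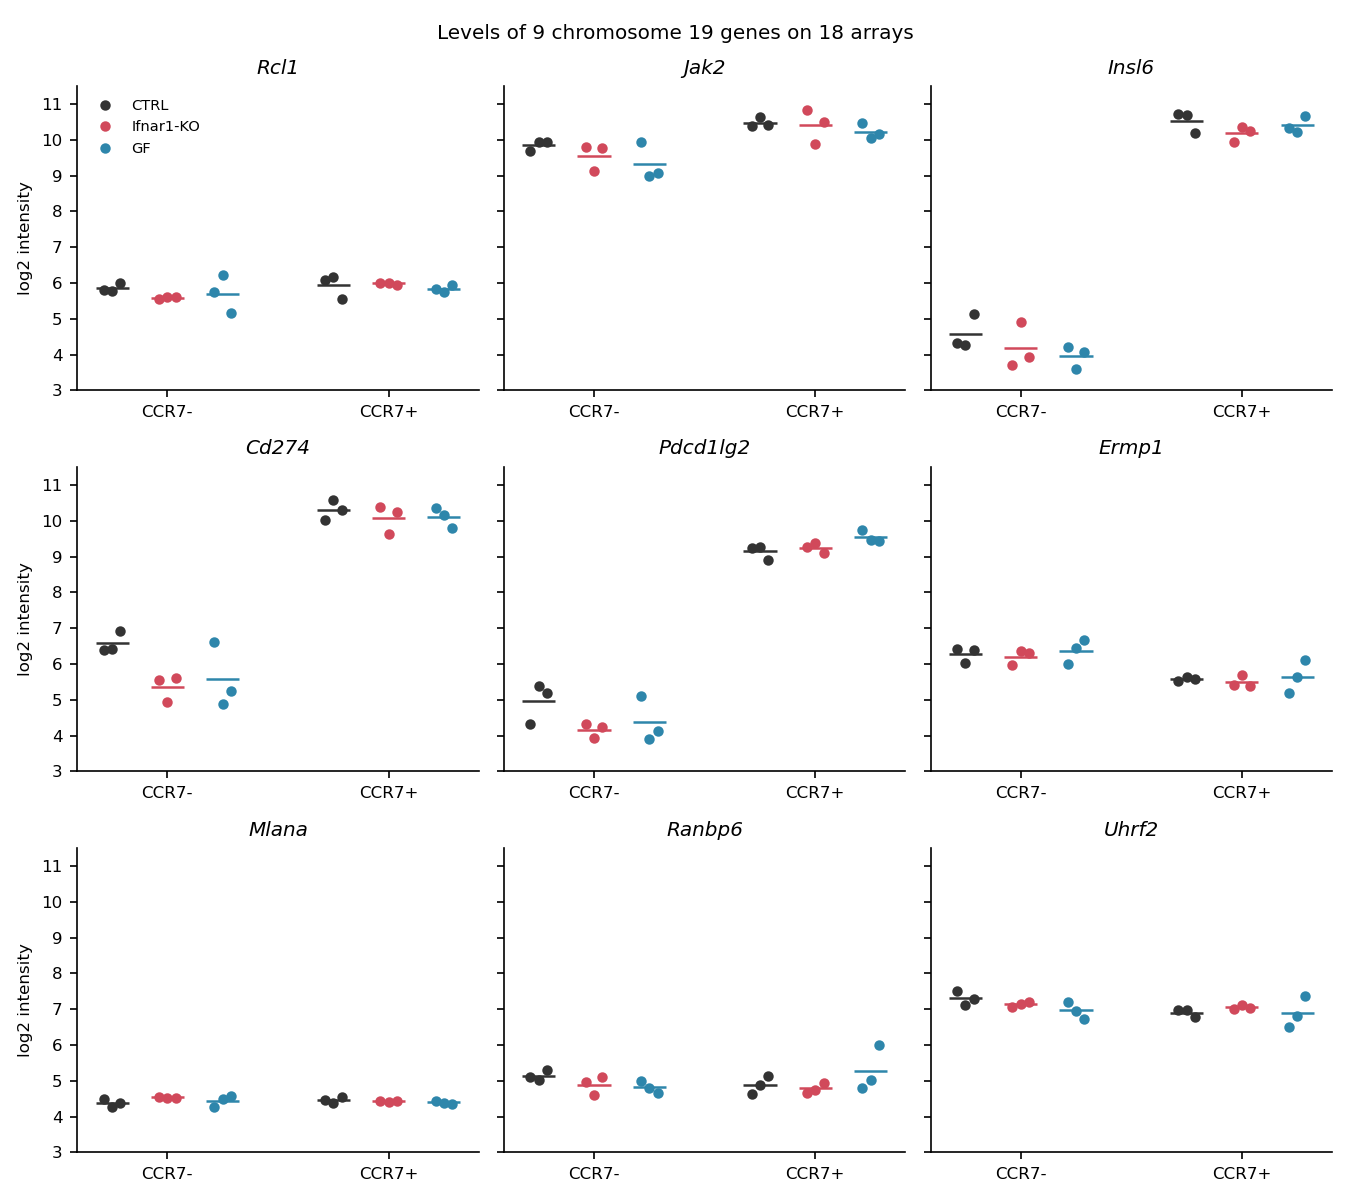
Level of each of the 9 genes on every array (log2 intensity, vertical axis), by group; points are the 3 arrays of a group in replicate order and horizontal lines their mean. Insl6, Cd274 and Pdcd1lg2 separate the CCR7- from the CCR7+ groups by several log2 units, while Mlana lies between 4.26 and 4.56 on every array.

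The flanking members showed smaller changes or the opposite one. Rcl1, a nucleolar protein used in ribosomal RNA processing, read 5.81, 5.77 and 6.0 on CCR7- and 6.07, 6.17 and 5.56 on CCR7+ arrays of CTRL, with changes of 0.07 ± 0.20, 0.40 and 0.14 in the 3 backgrounds. Ermp1, a metallopeptidase of the endoplasmic reticulum, was lower in matured cells. Its arrays read 6.43, 6.04 and 6.39 on CCR7- and 5.52, 5.63 and 5.58 on CCR7+ cells of CTRL, 5.96, 6.37 and 6.29 against 5.42, 5.70 and 5.39 in Ifnar1-KO, and 6.0, 6.45 and 6.66 against 5.18, 5.64 and 6.11 in GF. The stages of Ermp1 overlap in GF, through its CCR7+ replicate 3, and not in CTRL or Ifnar1-KO. The change was -0.71 ± 0.21 in CTRL, -0.70 in Ifnar1-KO and -0.73 in GF.

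Mlana, the melanocyte antigen MART, lay at 4.26 to 4.56 on all 18 arrays. The melanocyte markers had a mean level of 4.08 to 4.44, and 0 of the 5 passed with maturation in any background. Over all genes 26.2% passed in CTRL, 20.2% in Ifnar1-KO and 21.3% in GF. Ranbp6, a relative of the importins, lay at 4.61 to 5.29 on CCR7- arrays and 4.63 to 5.99 on CCR7+ arrays. Its top value is the GF replicate 3 array, which also holds the highest CCR7+ value of Uhrf2, 7.38. Uhrf2, a ubiquitin ligase that binds modified DNA, lay at 6.73 to 7.51 on CCR7- and 6.50 to 7.38 on CCR7+ arrays, with changes of -0.40 ± 0.18 in CTRL, -0.08 in Ifnar1-KO and -0.07 in GF.

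Read against all genes, the counts at an adjusted p under 0.05 (limma, Benjamini-Hochberg over all 19938 genes) were as follows, and nothing is drawn from them since maturation chose the members. In CTRL 4 of 9 members passed, 3 higher and Ermp1 lower, where 26.2% of all genes passed, 12.6% higher and 13.6% lower. In Ifnar1-KO 5 passed, with Jak2 added to the higher ones, against 20.2% of genes (9.42% higher, 10.8% lower), and in GF the same 5, against 21.3% (9.53% and 11.8%). Insl6, Cd274 and Pdcd1lg2 passed with any array left out in all 3 backgrounds. Ermp1 lost its call in CTRL with CCR7- replicate 1 or 3 or CCR7+ replicate 1 or 3 left out, where its change was -0.71 to -0.63, in Ifnar1-KO with CCR7- replicate 2 or 3 or CCR7+ replicate 1 or 3 out (-0.66 to -0.62), and in GF with CCR7- replicate 2 or 3 or CCR7+ replicate 1 or 2 out (-0.73 to -0.50). Jak2 lost it in Ifnar1-KO with CCR7- replicate 2 or CCR7+ replicate 1 or 3 out (0.63 to 0.80), and in GF with CCR7- replicate 2 or 3 or CCR7+ replicate 1 or 3 out (0.71 to 0.92). With the replicate number within each background as a block, Jak2 also passed in CTRL, for 5 members, where 5556 of all genes passed. Without the 6 arrays that stand apart, GF replicate 1 is alone in its groups. The change in GF was then 0.51 for Jak2, -0.70 for Uhrf2 and 3.75 for Cd274. By groups that do not overlap, CTRL had 4 higher members (Jak2, Insl6, Cd274 and Pdcd1lg2), against 28.8% of all genes, and 2 lower ones (Ermp1 and Uhrf2), against 20.2%. Ifnar1-KO had 5 higher, with Rcl1, against 14.4%, and 2 lower, Ermp1 and Mlana, against 15.2%. GF had 4 higher against 18% and 0 lower against 15.7%. The median change of the members was 0.10 in CTRL, against 0.07 over all genes. It was 0.40 against 0.0040 in Ifnar1-KO and 0.45 against 0.03 in GF.

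In chromosomal order the changes form a block with sharp sides. Between Jak2 and Insl6, its neighbour, the change stepped up by 5.33 ± 0.47 (SE) in CTRL, 5.14 in Ifnar1-KO and 5.55 in GF. The step from Insl6 to Cd274 was -2.23, -1.27 and -1.90, and that from Pdcd1lg2 to Ermp1 was -4.89, -5.77 and -5.90. The members do not fill the block, because the annotation places other genes between them.

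Of 16 other RefSeq genes between Rcl1 and Uhrf2, 7 are on the array with a probeset of their own. Plgrkt, a plasminogen receptor gene next to Cd274, read 7.60, 7.66 and 7.60 on CCR7- and 9.28, 9.25 and 8.95 on CCR7+ arrays of CTRL, and its change was 1.55 ± 0.13, 1.88 in Ifnar1-KO and 1.80 in GF. Ric1, a trafficking protein of the Golgi whose gene lies between Pdcd1lg2 and Ermp1, read 6.85, 6.79 and 6.89 and then 9.50, 9.87 and 10.03 in CTRL. Its change was 2.96 ± 0.29 in CTRL, 3.14 in Ifnar1-KO and 3.08 in GF. Plgrkt and Ric1 thus passed higher in every background, and the other 5 in none. These are Mir101b, Rln1, 9930021J03Rik, Il33 and Trpd52l3, with changes of -0.25 to 0.36. Over all genes 12.6% passed higher in CTRL, 9.42% in Ifnar1-KO and 9.53% in GF, and nothing is drawn from these calls. Rln1, the relaxin gene between Insl6 and Plgrkt, had changes of 0.17 ± 0.25, 0.30 and 0.03. Described by size of change alone, the larger changes from Insl6 to Ric1 were interrupted by Rln1, with Jak2 on one side and Ermp1 on the other.

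Within 1 Mb before Rcl1, 7 genes were measured. Gm9895, a noncoding RNA gene in RefSeq, passed higher in each background, with changes of 1.0 ± 0.18, 1.23 and 1.31. Ak3, an adenylate kinase, passed lower in CTRL, with -0.64, and did not pass in Ifnar1-KO (-0.43) or GF (-0.59). Within 1 Mb after Uhrf2, 6 genes were measured, and Prkg1, a cGMP-dependent kinase, passed higher in CTRL (0.30) and GF (0.25). The shares of all genes that passed higher and lower were 12.6% and 13.6% in CTRL, 9.42% and 10.8% in Ifnar1-KO, and 9.53% and 11.8% in GF. The largest change in these flanks, 1.31, is below those of Plgrkt, Cd274, Pdcd1lg2, Ric1 and Insl6.

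**Figure D2:**
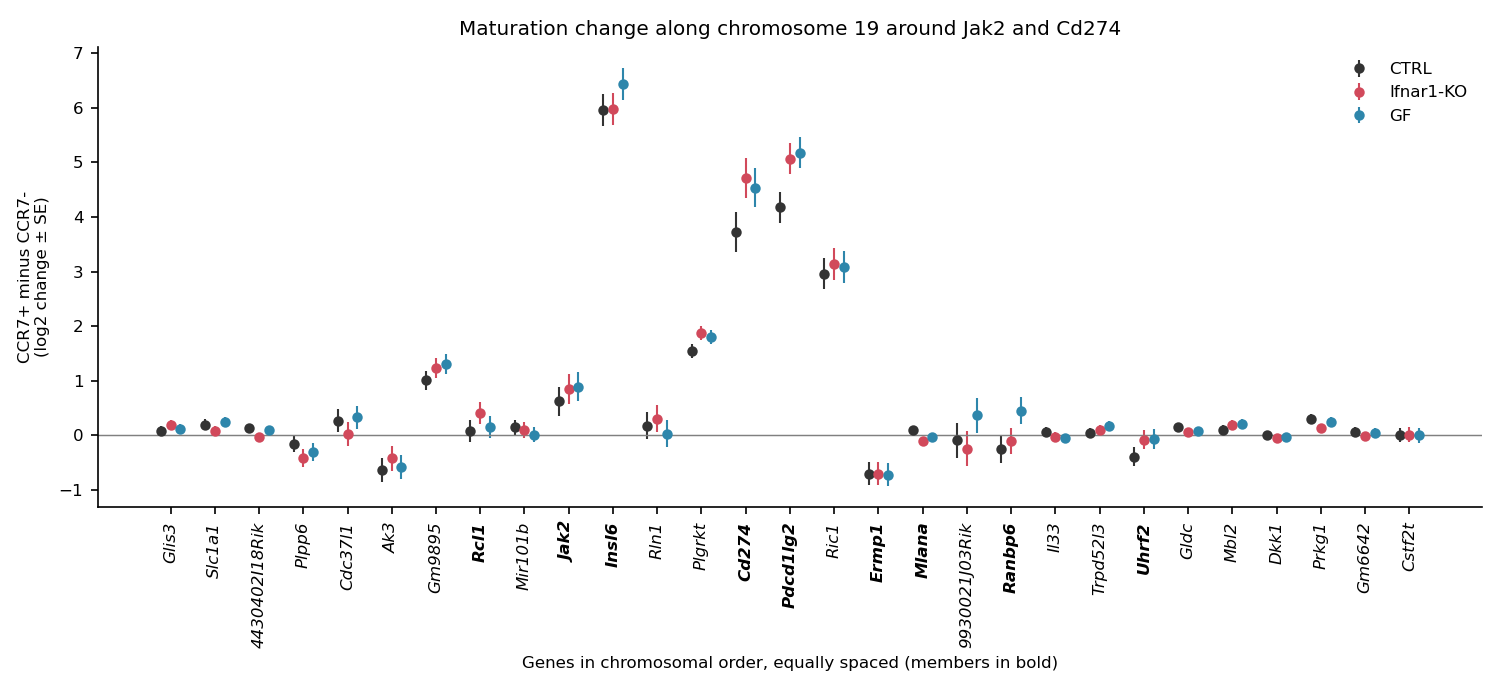
Change with maturation (CCR7+ minus CCR7-, log2, vertical axis) of the measured genes from 1 Mb before the first to 1 Mb after the last member in chromosomal order, equally spaced, with bars of 1 SE, for the 3 backgrounds. The values stand at 5.96 to 6.44 for Insl6, 3.72 to 5.18 for Cd274 and Pdcd1lg2 and 2.96 to 3.14 for Ric1, and between -0.73 and 1.31 on either side of the block.

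Whether the locus depends on the type I interferon receptor or on the microflora was asked by comparing backgrounds within each stage, which the choice of members did not use. These comparisons share the CTRL arrays. No member passed in any of them. For Ifnar1-KO minus CTRL in CCR7- cells 0% of all genes passed, for GF minus CTRL in CCR7- cells 0.015%, and in CCR7+ cells 0.015% for Ifnar1-KO and 0.0301% for GF, so very few genes of any kind passed. At an unadjusted p under 0.05 in limma's test, Cd274 and Pdcd1lg2 passed in Ifnar1-KO CCR7- cells (7.03% of genes), Cd274 in GF CCR7- cells (6.32%), and 0 members in CCR7+ cells of either (2.92% and 5.86%).

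The lowest p among the members was that of Cd274 in immature Ifnar1-KO cells. Its level was -1.22 ± 0.36 from CTRL (95% interval -1.99 to -0.44, adjusted p = 0.681 by limma), with 3 of 3 arrays below all of CTRL. In immature GF cells it was -1.01 ± 0.36 (-1.79 to -0.23, adjusted p = 0.766), with 2 of 3 arrays below CTRL and replicate 1 within its range. Pdcd1lg2 was -0.80 ± 0.28 in Ifnar1-KO and -0.59 ± 0.28 in GF, Insl6 -0.39 and -0.61, and Jak2 -0.30 and -0.53. All 4 differences were negative in both backgrounds, and none passed the threshold. Without the 6 arrays that stand apart those of GF were 0.03 for Cd274, 0.13 for Pdcd1lg2 and 0.09 for Jak2, while Insl6 was at -0.37.

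The GF value of Cd274 rests on particular arrays. Without GF CCR7- replicate 1 it was -1.53, with an adjusted p of 0.0464 in limma, and 41 genes passed in all, against 3 with every array. The fit without the 6 arrays leaves GF replicate 1 alone in its groups, and its spread is then assumed to be that of the other groups. The Ifnar1-KO value was -1.0 without those 6 arrays and -1.31 without its CCR7- replicate 1.

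Ccr7, the gene that marks the gate, differed between the same arrays. Its CCR7- arrays read 9.03, 8.98 and 8.95 in CTRL, 7.85, 8.54 and 7.29 in Ifnar1-KO, and 9.09, 7.25 and 7.77 in GF. From CTRL this is -1.09 ± 0.35 in Ifnar1-KO and -0.95 in GF. GF replicate 1 read like CTRL for both Ccr7 and Cd274, and GF replicates 2 and 3 were low for both. Within Ifnar1-KO the order ran the other way. Replicate 2 had its highest Ccr7 (8.54) and lowest Cd274 (4.93), and replicate 3 its lowest Ccr7 (7.29) and highest Cd274 (5.61). That order rests mostly on replicate 2, which is among the 6 arrays that stand apart. Cd274 of replicates 1 and 3 was close, at 5.56 and 5.61. The part of whatever sets the Ccr7 level in the Cd274 and Pdcd1lg2 values was not tested. In bulk arrays fewer cells with a transcript and less of it per cell cannot be told apart.

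**Figure D3:**
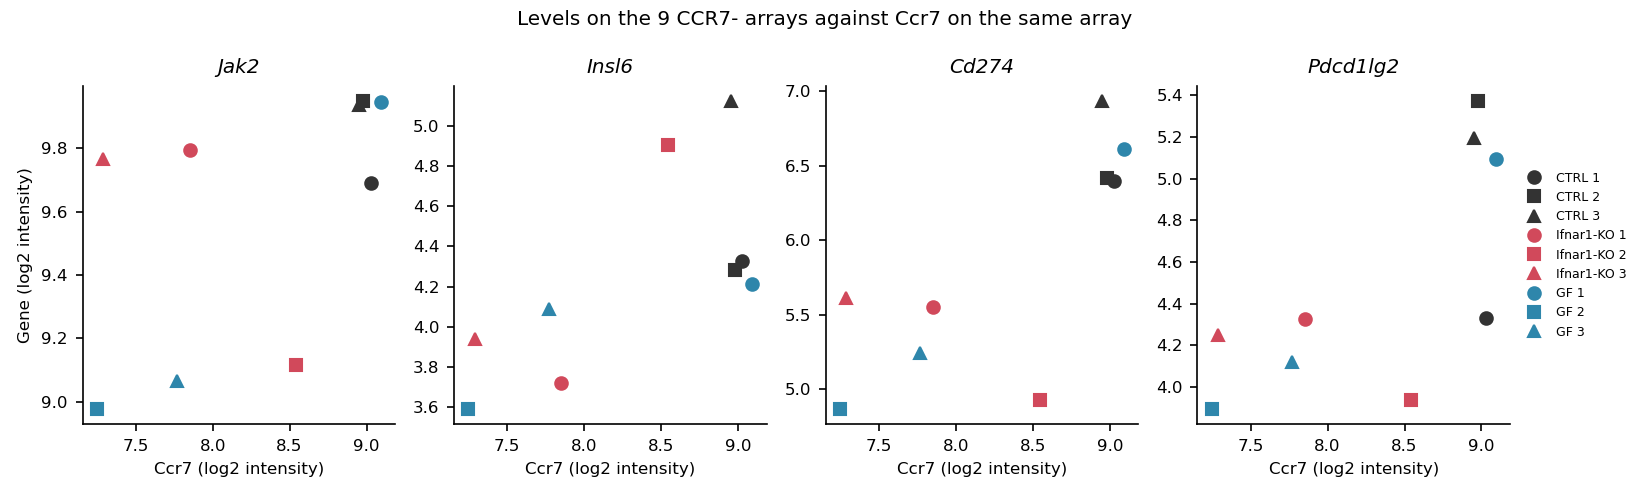
Level of Cd274 and Pdcd1lg2 (log2 intensity, vertical axes), with Jak2 and Insl6 beside them, against that of Ccr7 (log2 intensity, horizontal axes) on the 9 CCR7- arrays; each point is 1 array, its colour the background and its shape the replicate. The 3 arrays of CTRL and GF replicate 1 lie at Ccr7 levels of 8.95 to 9.09 and Cd274 levels of 6.40 to 6.93, and the other 5 lie lower on both. Among the Ifnar1-KO arrays the one highest for Ccr7, replicate 2, is the lowest for Cd274. It is among the 6 arrays that stand apart.

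In matured cells the backgrounds lay closer together. Cd274 differed from CTRL by -0.23 ± 0.36 (-1.0 to 0.55) in Ifnar1-KO and -0.19 (-0.97 to 0.58) in GF. Pdcd1lg2 differed by 0.09 ± 0.28 (-0.51 to 0.70) and 0.40 (-0.20 to 1.01), Insl6 by -0.36 and -0.13, and Jak2 by -0.08 and -0.26. The Cd274 intervals reach down to -1.0 and -0.97, so differences of that size are within them. The mean level of the 11 measured thymocyte markers was 5.19 to 5.81 on CCR7+ arrays of CTRL, 5.37 to 8.16 in Ifnar1-KO, where 8.16 is replicate 2, and 5.50 to 6.44 in GF. On CCR7- arrays it was 4.42 to 5.24, and 1, 3 and 3 of the 11 passed higher with maturation in CTRL, Ifnar1-KO and GF. The shares over all genes were 12.6%, 9.42% and 9.53%. The part of thymocyte transcripts in the values of the members was not tested.

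By arrays that do not overlap, Ifnar1-KO CCR7- cells had 3 members below CTRL (Rcl1, Cd274 and Pdcd1lg2), against 4.41% of all genes, and Mlana above it, against 11%. For Pdcd1lg2 the highest Ifnar1-KO and the lowest CTRL array both round to 4.33. GF CCR7- cells had Insl6 and Ranbp6 below CTRL, against 5.21%, and 0 members above it, against 9.6%. In CCR7+ cells Uhrf2 was above CTRL in Ifnar1-KO, against 3.58%, and Pdcd1lg2 in GF, against 5.91%, with 0 members below it in either (3.36% and 5.54%). The median difference of the members in CCR7- cells was -0.28 in Ifnar1-KO and -0.34 in GF, against 0.04 and 0.03 over all genes.

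The size of the maturation change was compared between backgrounds by the difference of the changes. For Cd274 the change in Ifnar1-KO exceeded that in CTRL by 0.99 ± 0.51 (-0.11 to 2.09, adjusted p = 0.958 in limma), and the change in GF did so by 0.82. For Pdcd1lg2 the excess was 0.89 ± 0.40 (0.03 to 1.75, adjusted p = 0.958) and 1.0 ± 0.40 (0.14 to 1.86, adjusted p = 0.999). For Insl6 it was 0.03 and 0.48, and for Jak2 0.23 and 0.27. For Ccr7, the gene of the gate, it was 1.01 and 0.96. The low CCR7- levels that enter the Pdcd1lg2 and Insl6 values may be background. Without the 6 arrays that stand apart the excess in GF was 0.031 for Cd274 and 0.47 for Pdcd1lg2. For Cd274 in GF it was 0.46 without GF CCR7- replicate 2 and 1.33 without GF CCR7- replicate 1. For Jak2 in Ifnar1-KO it was 0.0039 without Ifnar1-KO CCR7- replicate 2. No member and 0% of all genes passed for either background, so a difference in the size of maturation was not shown for any of the 9. At an unadjusted p under 0.05 in limma's test, Pdcd1lg2 was the member that passed, in each (4.52% and 3.31% of genes).

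**Figure D4:**
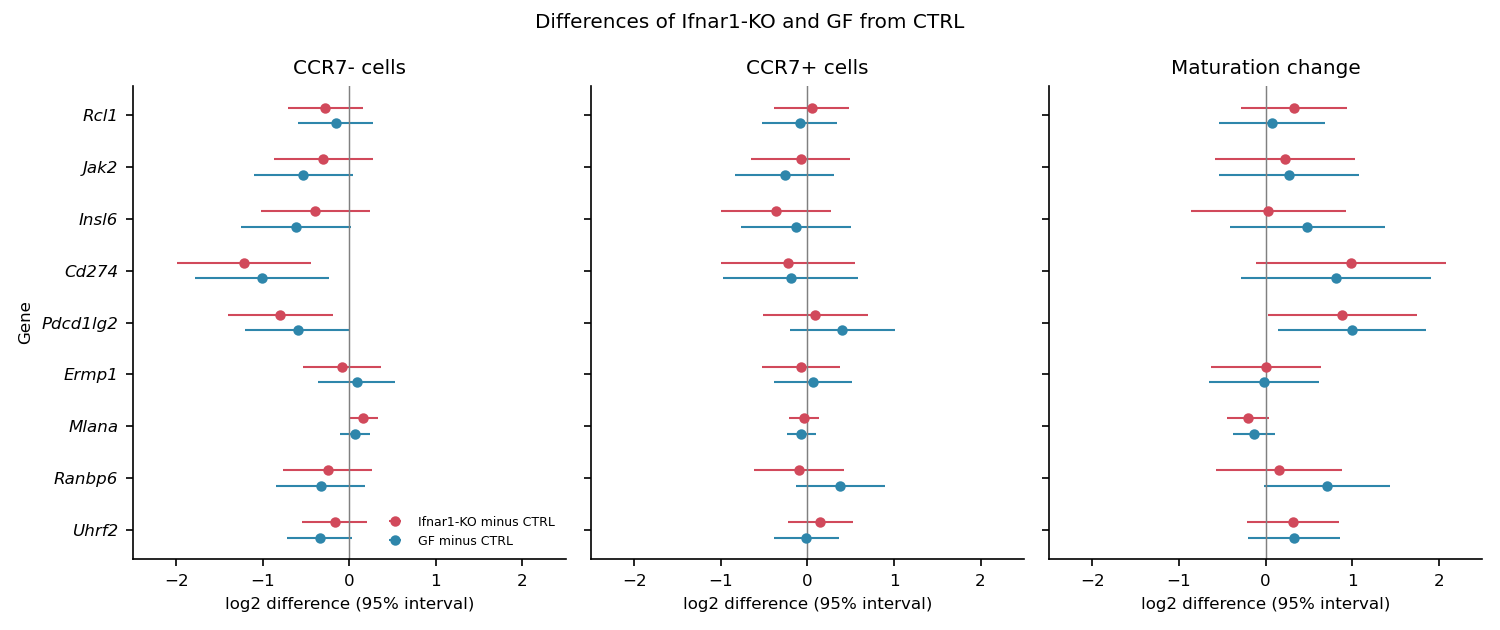
Difference from CTRL (log2, horizontal axis) of each member in CCR7- cells, in CCR7+ cells and in the change with maturation, for Ifnar1-KO and GF, with 95% intervals. Cd274 lies at -1.22 and -1.01 in CCR7- cells and near 0 in CCR7+ cells, and no difference passed after adjustment.

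Among the genes whose 6 group means are most like those of a member (smallest root mean square difference after centring each gene), Insl6 had Stat4 nearest, at 0.12, ahead of Tnfrsf4 at 0.36, Serpinb1a at 0.40, Socs2 at 0.42 and Anxa3 at 0.47. Nearest to Cd274 were Asprv1 at 0.13, Gbp5 at 0.18, Lad1 and Gbp4 at 0.20 and Idi1 at 0.27, and Pdcd1lg2 followed at 0.33, the eighth of all genes. Nearest to Pdcd1lg2 were Tmem176a at 0.16, Mt2 at 0.17, Glipr2 and Ccl5 at 0.19 and Scin at 0.22. By likeness to Pdcd1lg2, Cd274 ranked 17 among all genes. Nearest to Jak2 were Asap1 at 0.04, Dapp1 and Usp47 at 0.05 and Galnt12 and Dock8 at 0.06. Each likeness is over 6 group means, and the maturation contrast enters it.

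The partners of the locus were read from 4 gene lists taken from general knowledge. Among receptors that signal through JAK2, 13 of 15 were measured, and 4 passed higher, 1 lower and 8 in neither direction in each background. Over all genes 12.6% passed higher and 13.6% lower in CTRL, 9.42% and 10.8% in Ifnar1-KO, and 9.53% and 11.8% in GF. Il23r, the IL-23 receptor, was 3.79 ± 0.28 higher in CTRL, and Ifngr1, the ligand-binding chain of the interferon-gamma receptor, was lower, with -2.85 in CTRL, -2.40 in Ifnar1-KO and -2.79 in GF. Csf2rb and Il3ra, chains of the GM-CSF and IL-3 receptors, were higher by 0.90 and 1.01 in CTRL. The other chain of the interferon-gamma receptor, Ifngr2, did not pass in any background, with -0.15, -0.21 and -0.18. The list's median change was 0.17 in CTRL, against 0.07 over all genes. It was 0.037 against 0.0040 in Ifnar1-KO and 0.023 against 0.033 in GF.

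Among JAK kinases, STATs and their brakes, 17 of 19 were measured. Their median change was 0.61 in CTRL, 0.67 in Ifnar1-KO and 0.79 in GF, against 0.07, 0.0040 and 0.03 over all genes. Over all genes 12.6% passed higher and 13.6% lower in CTRL, 9.42% and 10.8% in Ifnar1-KO, and 9.53% and 11.8% in GF. Of the list, 9 passed higher, 1 lower and 7 in neither direction in each background. The 9 were not all the same genes: Tyk2, a relative of Jak2, passed in CTRL (1.01) and GF (0.92) but not in Ifnar1-KO (0.67), and Socs1, a brake on JAK kinases, passed in Ifnar1-KO (0.45) but not in CTRL (0.27) or GF (0.29). Stat4, which IL-12 receptors use, was higher by 5.98, Socs2, a brake on cytokine receptors, by 4.82, Irf1, an interferon-induced factor that acts on Cd274, by 3.17, and Stat3 by 1.36 in CTRL. The phosphatase gene Ptpn11 was lower, with -1.11 in CTRL. Jak1, another relative, was at 0.50 in CTRL and did not pass.

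Of 8 partners of the PD-1 axis, 4 passed higher and 1 lower in CTRL and GF, and 4 and 0 in Ifnar1-KO. The shares over all genes were 12.6% and 13.6% in CTRL, 9.53% and 11.8% in GF, and 9.42% and 10.8% in Ifnar1-KO. Cd80, a costimulator that binds PD-L1 on the same cell, was higher by 1.44 in CTRL, 1.39 in Ifnar1-KO and 1.81 in GF, and Rgmb, a binding partner of PD-L2, by 1.15, 1.24 and 0.99. Cmtm6, which keeps PD-L1 at the surface, was higher by 0.90, 0.91 and 0.89, and Spop, a ubiquitin ligase adaptor acting on PD-L1, by 0.53 in CTRL. Cmtm4, a relative of Cmtm6, was at 0.58 in CTRL and did not pass. Cops5, a deubiquitinase acting on PD-L1, was lower in CTRL (-0.52) and GF (-0.54), and at -0.37 did not pass in Ifnar1-KO. Pdcd1, the gene of PD-1 itself, was 0.32 and did not pass. Of 8 other genes of the relaxin family and its receptors, 7 were measured and 0 passed in any background.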

How the data were processed

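RNA of sorted thymic XCR1+ dendritic cells was amplified with the NuGEN Ovation Pico WTA kit and hybridised to Affymetrix mouse gene arrays, per the labels' protocols. The deposited values are log2 intensities, made by the authors with RMA in oligo, per the submitters' processing notes; their versions are not given. RMA compresses large changes, and an array has no read depth: precision is limited by 3 arrays per group.

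Of 35556 probesets, 21789 have exactly 1 symbol in the platform annotation, 1621 several and 12146 none. For 999 genes with several probesets the one with the highest mean was kept, leaving 19938 genes. No filter on level was set and values were not normalised again. The fit, by limma 3.58.1 in R 4.3.3, had a mean for each group and 12 residual degrees of freedom. It gave 9 comparisons: maturation in each background, each background against CTRL within each stage, and the difference of maturation changes. P-values were adjusted over all genes (Benjamini-Hochberg, threshold 0.05). The functions were tested on simulated data. Figures were drawn with matplotlib 3.10.9.

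The members and lists were chosen with earlier results of these data known. Named were all members, measured genes between them, the 5 genes likest to each of Jak2, Insl6, Cd274 and Pdcd1lg2, up to 4 genes per list with the largest changes in CTRL, and the sort genes and Ifnar1. Gm9895, Ak3, Prkg1, Irf8, Batf3, Ifngr2, Ptpn11, Tyk2, Jak1, Socs1, Spop, Cops5 and Pdcd1 were named after their values were seen. Gene order and promoters are RefSeq's on GRCm38.p6; the array annotation names no build, so only the printed promoters have coordinates.

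For replicate 2 of CTRL the letters in the array codes run opposite to the other pairs, and the labelled stage was kept. Of 18 array codes, 12 end in an r of unstated meaning, among them all 6 of GF. Arrays of equal replicate number were compared across stages by the correlation of their deviations. It was 0.188, 0.147 and 0.100 in CTRL, 0.284, 0.321 and 0.236 in Ifnar1-KO, and 0.267, 0.00354 and 0.0296 in GF. Unlike numbers were not compared, so these values do not show that the numbers pair. The alternatives were an intensity trend, median centring, a filter at the median level, the mean of all probesets, only the groups compared, the replicate block, the r as covariate and leaving out arrays. Leaving out the 6 arrays that stand apart was added after seeing the data.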

Additional observations from a re-analysis of the deposited data

How the results depend on the processing

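Across 18 arrays, 142 settings were run for the 9 counts of members called, 384 for the 27 maturation changes and 396 for the 24 tested differences of Jak2, Insl6, Cd274 and Pdcd1lg2. A count moved by over 1.5 times, or from 0, in 8 settings, a maturation change by more than 1 SD between replicates in 4, and a tested difference turned direction in 21 and gained a call in 1. Sizes moved within these limits too, and the calls of Ermp1 and Jak2 lost without 1 array are given with the members' counts. Leaving out 1 array, the members called with maturation were 3 to 4 in CTRL and 3 to 5 in Ifnar1-KO and in GF. Of all 19938 genes, 4083 to 4951 then passed in CTRL, 3362 to 3879 in Ifnar1-KO and 3638 to 3916 in GF. In GF minus CTRL of CCR7- cells 0 to 1 member (Cd274) passed. With only the groups compared the counts were 6 in CTRL, with Jak2 and Uhrf2 added, and 3 in GF, without Jak2 and Ermp1. In Ifnar1-KO Rcl1 passed in place of Jak2. The number of all genes that passed moved too, to 6169 in CTRL, 3313 in GF and 2937 in Ifnar1-KO. In the main fit it was 5218, 4256 and 4036. With the replicate block 5 members passed in each background, Jak2 now among them in CTRL, and 0 in the comparisons between backgrounds. Of all genes, 5556 passed with maturation in CTRL, 4353 in Ifnar1-KO and 4555 in GF. The block was the replicate number within a background for maturation and for the differences of changes. Between backgrounds within a stage it was the number alone, and the labels do not tie equal numbers across backgrounds. The block changed no other member's call with maturation. It rests on equal numbers pairing across stages, which was not shown. GF replicates 2 and 3 correlated across stages at only 0.00354 and 0.0296.

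Without the 6 arrays that stand apart, GF maturation changes were 0.51 for Jak2, 6.10 for Insl6, 3.75 for Cd274, 4.65 for Pdcd1lg2, 0.18 for Mlana, -0.21 for Ranbp6 and -0.70 for Uhrf2. These GF changes rest on replicate 1 alone at each stage, so no calls are given for them. The changes in CTRL were the same as with every array. GF minus CTRL in CCR7- cells then was 0.086 for Jak2, 0.030 for Cd274 and 0.13 for Pdcd1lg2, Cd274 of GF CCR7+ cells 0.061 and the difference of changes of Jak2 in GF -0.11. In Ifnar1-KO CCR7+ cells Jak2 was 0.18 and Cd274 0.0024, as without both Ifnar1-KO replicate 2 arrays. With the r as covariate Jak2 of Ifnar1-KO CCR7+ cells was 0.041 and Cd274 of GF CCR7+ cells 0.048. Leaving out 1 array, Ifnar1-KO minus CTRL in CCR7+ cells ranged from -0.29 to 0.18 for Jak2, -0.38 to 0.0024 for Cd274 and -0.023 to 0.17 for Pdcd1lg2, and the difference of changes of Insl6 in Ifnar1-KO from -0.24 to 0.39. None of these differences had passed, and the cause of each turn was not tested.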
